A study of Mus musculus with 18 samples.

Results

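The transcriptome of intestine from mice with the H3 K36M genotype was compared with that of wild-type (WT) mice. The comparison took the 4 libraries so labelled, 2 of K36M and 2 of WT, of the 18 libraries in the series. The series measured polyadenylated RNA in marrow progenitors, intestine and testes, in 3 genotypes and with 2 libraries per group. The intestine libraries came from dissociated intestinal cells of mice on a C57B6/129 hybrid background. All mice received 2 mg/ml doxycycline in their drinking water from 6 to 8 weeks of age, controls included. Libraries are named by genotype and mouse, so that the WT group held WT.1476 and WT.1477 and the K36M group K36M.1485 and K36M.1553. A further pair, K9M.1516 and K9M.1519, carried the substitution at lysine 9 and served in the fit and as a side reference. The labels used here do not say which H3 isoform or promoter drove the mutant histone, how long doxycycline was given, which segment of intestine was taken, or whether the WT mice carried any transgene. The study used both sexes, and the intestine mice also gave testes.

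Lysine 36 of histone H3 carries methyl groups in the bodies of transcribed genes and in the regions between genes. A histone in which this lysine is replaced by methionine, K36M, is known to inhibit the enzymes that methylate lysine 36 and so lowers the mark on normal histones. The intestinal epithelium renews itself from stem cells in the crypts, whose progeny become absorptive enterocytes or secretory goblet, Paneth, enteroendocrine and tuft cells, and T cells lie among the epithelial cells.

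The 6 intestine libraries held 13396303 to 20577661 counts in genes. WT.1476 stood apart from WT.1477 in testis transcripts. The summed level of 18 germ cell genes was 392 CPM (counts per unit of library size, TMM-scaled) in WT.1476 and 32.6 to 77.9 CPM in the other 5 libraries. In WT testes 8533 genes were at least 20-fold higher than in every intestine library other than WT.1476, many of them too low in intestine to be tested. Leaving them out gave 3503 calls among 13380 tested genes, against 3323 among 14246 with all genes. Mice of a group differed beyond counting error, the chi-square of each pair divided by its degrees of freedom being 37.4 in WT and 62.9 in K36M. The first principal component of the 6 intestine libraries held 62.8% of the variance and placed both K36M libraries, at 84.3 and 72.3, far from the other 4, at -41.5 to -34.6. Epithelial markers were present in every library, with brush border enzymes summing to 24622 CPM or more. No separate count of the mutant histone was used here. The H3.3 genes did not pass the test. H3f3a was at 340 and 371 CPM in WT and 282 and 234 CPM in K36M (adjusted p = 0.0891). H3f3b was at 298 and 278 against 354 and 308 CPM (adjusted p = 0.402). Since the labels do not give the isoform of the mutant histone, these counts may include its reads.

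Of 14246 genes tested with edgeR's quasi-likelihood test, 3323 (23.3%) passed a Benjamini-Hochberg adjusted p of 0.05 between K36M and WT. These were divided almost evenly, into 1662 genes higher in K36M (11.7% of those tested) and 1661 lower (11.7%), and the median log2 fold change of all tested genes was -0.02. The sizes were not even. At least 8-fold changes numbered 513 upward and 131 downward. Among genes with a mean level under 1 CPM, 221 rose and 63 fell, whereas from 10 to 100 CPM 658 rose and 895 fell. Both K36M libraries lay above both WT libraries for 30.6% of genes and below both for 32.3%. The number of calls varied with the libraries in the fit. It was 881 without WT.1477, 1008 without WT.1476, 1853 without K9M.1516, 1790 without K9M.1519, 2987 without K36M.1485 and 3775 without K36M.1553. Throughout, a gene is said to rise or fall only where it passed the test. Over all tested genes 11.7% rose and 11.7% fell, and the counts for each list below are to be set against those shares. Values are TMM-scaled CPM, log2 fold changes are fitted values ± SE with n = 2 per group, and counting intervals and bounds cover counting error only.

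**Figure D1:**
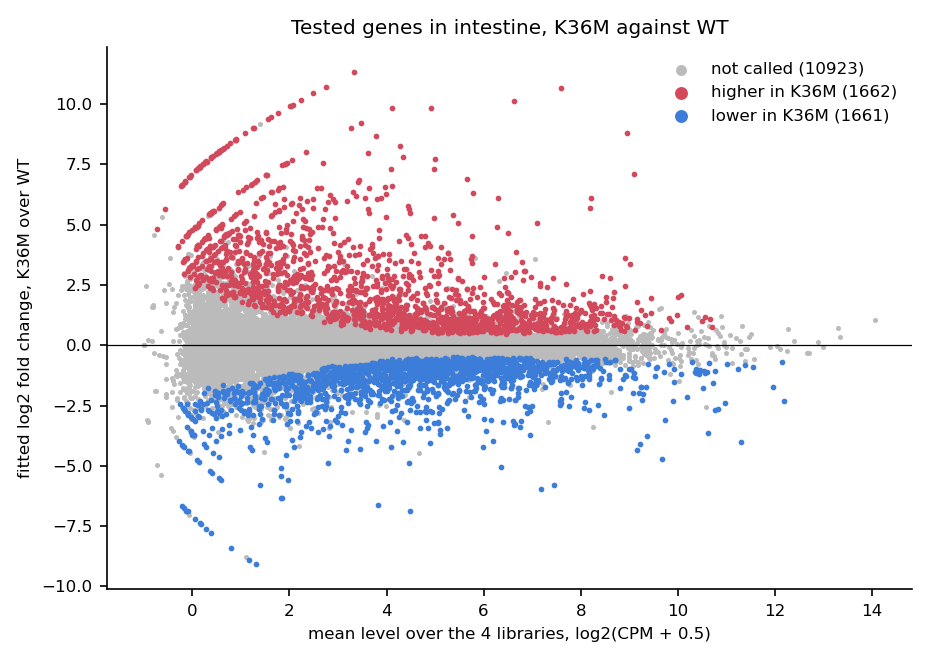
Each point is 1 of 14246 tested genes. The x axis is the mean level over the 2 WT and 2 K36M libraries as log2(CPM + 0.5), and the y axis the fitted log2 fold change of K36M over WT. The 1662 higher and 1661 lower genes are coloured, and the largest upward values lie at low to middle levels.

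The promoters of genes at both ends of the range are shown because these genes changed most and kept their call in all 15 alternative settings. They are the first such genes with a single start in the RefSeq promoter table of build GRCm38.p6, and CpG dinucleotides are in capitals. Tfec and Serpinb9b were among the largest rises. The windows are chr6:16898392-16898691 on the minus strand for Tfec, chr13:33027164-33027463 on the plus strand for Serpinb9b, chr6:78468825-78469124 on the minus strand for Reg3g and chr5:90490464-90490763 on the plus strand for Afp, each read 5′ to 3′ along the gene.
Tfec: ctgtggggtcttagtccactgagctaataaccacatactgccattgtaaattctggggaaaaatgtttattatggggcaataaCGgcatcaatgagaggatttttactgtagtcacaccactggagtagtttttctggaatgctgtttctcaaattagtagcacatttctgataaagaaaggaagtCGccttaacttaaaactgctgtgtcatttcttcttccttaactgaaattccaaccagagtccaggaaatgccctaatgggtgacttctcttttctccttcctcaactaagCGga
Serpinb9b: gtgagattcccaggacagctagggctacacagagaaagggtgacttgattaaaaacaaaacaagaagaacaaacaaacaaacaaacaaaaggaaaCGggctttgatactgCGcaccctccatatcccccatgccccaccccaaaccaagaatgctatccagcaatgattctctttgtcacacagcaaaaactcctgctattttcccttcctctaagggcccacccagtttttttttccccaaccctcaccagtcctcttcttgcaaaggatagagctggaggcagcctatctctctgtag
Reg3g and Afp were among the largest falls.
Reg3g: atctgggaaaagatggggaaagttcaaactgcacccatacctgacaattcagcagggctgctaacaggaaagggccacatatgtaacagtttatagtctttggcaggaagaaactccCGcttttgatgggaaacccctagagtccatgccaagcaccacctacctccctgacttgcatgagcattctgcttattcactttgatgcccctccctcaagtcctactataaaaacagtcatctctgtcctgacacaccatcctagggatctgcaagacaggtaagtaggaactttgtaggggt
Afp: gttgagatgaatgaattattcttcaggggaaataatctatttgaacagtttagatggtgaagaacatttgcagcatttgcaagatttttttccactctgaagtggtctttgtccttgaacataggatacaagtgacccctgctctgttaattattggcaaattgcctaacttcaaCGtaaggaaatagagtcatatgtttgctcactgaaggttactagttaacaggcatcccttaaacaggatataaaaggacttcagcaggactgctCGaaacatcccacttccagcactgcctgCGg
These windows of 300 bases hold 3, 2, 1 and 3 CpG in that order. The motif searched was CG, which reads the same on both strands. Over the 8126 tested protein-coding genes with a single start, of 12882 tested, the median was 21 CpG. The median was 20 for the 920 that rose, 19 for the 989 that fell and 21 for the 6217 not called. It was 13 for the 271 that rose at least 8-fold and 7 for the 78 that fell at least 8-fold. Windows with 5 or fewer CpG made up 12.1% of all matched promoters, 30.6% of those of genes that rose at least 8-fold and 42.3% of those that fell at least 8-fold. Among genes with a mean under 1 CPM the median was 15 for those that rose, 4.5 for the 28 that fell and 14 for those not called, and from 1 to 10 CPM it was 16, 14 and 18. The 105 rises under 1 CPM thus held about as many CpG as uncalled genes of that level. These are descriptions of the letters in the windows, and level differed too, with a median mean level of 17.8 CPM for all, 1.85 CPM for the large rises and 8.33 CPM for the large falls.

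The 10 largest rises above a mean of 2 on the log2 CPM scale were of genes near or at 0 in WT intestine. Tfec, a transcription factor of the MiT/TFE family, had no count in WT and 9.04 and 15.8 CPM in K36M, at least 151-fold higher from a floor of 3 counts over the WT group (adjusted p = 0.00298). Serpinb9b, a serine protease inhibitor, was at 0.146 and 0.203 CPM in WT and at 210 and 185 CPM in K36M, a log2 fold change of 10.12 ± 0.39 (adjusted p = 7.67e-04). Its relative Serpinb9, an inhibitor of granzyme B, went from 3.3 and 2.64 to 29.5 and 34.7 CPM (3.42 ± 0.25). In each of these genes the groups were far apart and the 2 K36M mice were alike.

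Scd1, the stearoyl-CoA desaturase that makes monounsaturated fatty acids, was at 2.86 and 1.36 CPM in WT and at 1272 and 693 CPM in K36M (8.82 ± 0.71, adjusted p = 0.0016). Zbtb16, the transcription factor PLZF, was at 0 and 0.136 CPM in WT and at 74.0 and 44.4 CPM in K36M, a ratio of 1019 with a 95% counting interval of 282 to 8423. Sec14l4, a lipid-binding protein, was at 0 and 0.0678 CPM against 40.2 and 26.5 CPM, a ratio of 1155 (207 to 45681). The K36M values were near each other in these genes. The K36M mice were less alike in Ren1, which encodes renin, at 0.0485 and 0 CPM in WT and 34.4 and 8.07 CPM in K36M, a ratio of 703 (126 to 27820).

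Gml2 was at 0.097 and 0.136 CPM in WT and 35.1 and 39.9 CPM in K36M (8.28 ± 0.40). Caln1 was at 0 and 0.136 CPM against 35.5 and 17.4 CPM, a ratio of 450 (124 to 3726). Cyp2d9, a cytochrome P450, was at 0.097 and 0.407 CPM in WT and 638 and 132 CPM in K36M (10.67 ± 1.5, adjusted p = 0.00653, and 0.0501 without WT.1476). Kcnj8, a subunit of ATP-sensitive potassium channels, rested on K36M.1485, at 34.9 CPM, with 1.52 CPM in K36M.1553. Its adjusted p was 0.0362, and 0.193 at the highest over the alternatives, where its call was lost by limma-voom, with the 2 genotypes alone and without WT.1476, WT.1477 or K36M.1485. Cyp2d9, Gml2 and the serpin B9 genes have near relatives in the genome, so reads may have been divided among copies and their values are uncertain.

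Falls were led by genes of several cell types. Barx2, a homeobox transcription factor, was at 37.0 and 49.6 CPM in WT and at 0.224 and 0.485 CPM in K36M (-6.86 ± 0.42, adjusted p = 0.00101). Ido1, an interferon-inducible enzyme of tryptophan breakdown, was at 27.8 and 26.6 against 0.224 and 0.303 CPM (-6.63 ± 0.50). Slc13a1, a sodium-sulphate cotransporter, was at 205 and 476 against 8.59 and 3.88 CPM (-5.78 ± 0.68, adjusted p = 0.00398). The groups were separated by more than 20-fold in all 3.

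Edn3, the peptide endothelin 3, was at 35.5 and 47.4 CPM in WT and at 1.79 and 1.03 CPM in K36M (-4.89 ± 0.31). Afp, alpha-fetoprotein, was at 12.7 and 12.1 against 0.597 and 0.243 CPM (-4.90 ± 0.46). Clca1, a secreted goblet cell protein, was at 1325 and 1812 against 42.2 and 77.6 CPM (-4.71 ± 0.38). Dnase1, Reg3g and Muc2 were the other genes of this group, at 319 and 253, 141 and 174, and 975 and 1190 CPM in WT and at 4.03 and 4.98, 3.88 and 5.46, and 38.2 and 67.4 CPM in K36M. Armc2 completed it, at 5.29 and 6.71 CPM in WT, with 0.149 and 0 CPM in K36M, a ratio of 87.9 with an interval of 24.0 to 730.2.

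**Figure D2:**
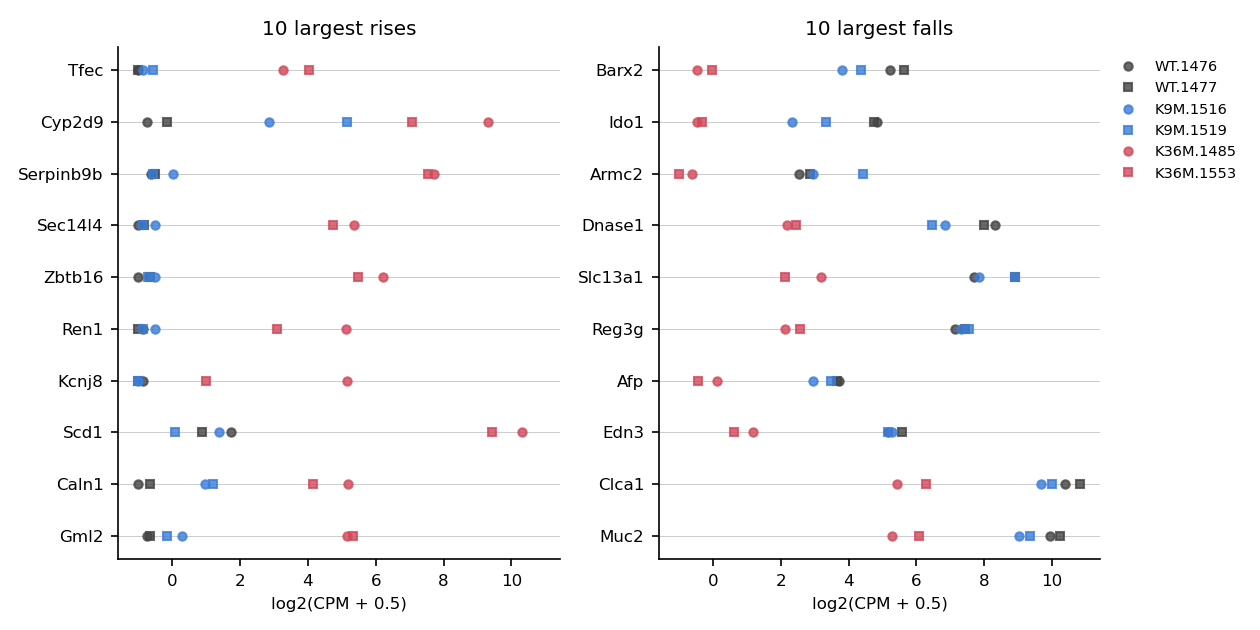
Levels of the 10 largest rises (left) and 10 largest falls (right) in each of the 6 intestine libraries. The x axis is log2(CPM + 0.5), circles and squares are the mice of a group, and colours are the genotypes. Both K36M points lie to the right of both WT points for every rise, widest apart in Kcnj8, and to the left for every fall.

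Genes absent from one genotype and present in the other went mostly one way. There were 49 genes under 0.5 CPM in both WT libraries and over 5 CPM in both K36M libraries, 46 of them protein coding, and 6 with the reverse pattern. Since these were picked by the levels themselves, the counts are a description. The genes named here, as examples chosen after their values were seen, kept their call without any one library. Plau, the urokinase plasminogen activator, was at 0.146 and 0.203 CPM in WT and 33.3 and 45.7 CPM in K36M. Hpn, the membrane protease hepsin, was at 0.243 and 0.136 against 38.0 and 27.6 CPM. Arhgap44 was at 0.388 and 0.271 against 33.4 and 33.4 CPM.

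Hif3a, a hypoxia-inducible factor subunit, was at 0.291 and 0.339 CPM in WT and 25.3 and 19.2 CPM in K36M. Sult1a1, a phenol sulphotransferase, was at 0.340 and 0.271 against 33.5 and 26.5 CPM. Sema3e, a semaphorin, had no count in WT or K9M and 7.54 and 9.22 CPM in K36M. In each of these named examples the K36M mice were within 2-fold of each other. Other genes of the 49 differed more between K36M.1485 and K36M.1553, among them Tg, at 45.0 and 8.25 CPM, and Gcgr, at 33.2 and 7.16 CPM. The 6 genes with the reverse pattern were Barx2, Ido1 and Armc2, given above, with Oas1e, Ppm1n and Tnfsf15. Tnfsf15, a TNF family cytokine, was at 6.79 and 5.83 CPM in WT and 0.149 and 0.364 CPM in K36M, and Oas1e and Ppm1n were at 5.43 to 6.89 CPM and at 0 to 0.149 CPM in the same groups. K9M was also low, at 0.0518 and 0.0572 CPM for Oas1e, 0.466 and 0.686 CPM for Tnfsf15 and 0.777 and 1.49 CPM for Ppm1n. Oas1e and Tnfsf15 were not called between K36M and K9M (adjusted p = 0.891 and 0.202). Barx2, Ido1, Armc2 and Ppm1n were called lower in K36M than in K9M.

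Among the secretory lineages, goblet cell genes had the lowest median. Of 25 tested goblet cell and mucus genes, 15 fell and 1 rose, with a median log2 fold change of -1.56 against -0.02 over all tested genes. The number that fell was 6 without WT.1477, 7 without WT.1476 and 12 to 17 without any other library. Zg16, a lectin that binds bacteria in mucus, was at 2684 and 3595 CPM in WT and at 481 and 510 CPM in K36M (-2.66 ± 0.22, adjusted p = 0.00168). Tff3, a trefoil peptide of the mucus layer, was at 883 and 1114 against 195 and 297 CPM (-2.02 ± 0.26). Fcgbp, a mucus protein that crosslinks with Muc2, was at 4622 and 4863 against 211 and 371 CPM (-4.03 ± 0.32). These 3 kept their call without any one library.

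Atoh1, the transcription factor that sets secretory fate, was at 12.3 and 10.9 CPM in WT and 0.896 and 2.73 CPM in K36M (-2.66 ± 0.51, adjusted p = 0.015). Its call was lost without WT.1476 or WT.1477, with adjusted p at most 0.0683. The 1 goblet cell gene that rose was Qsox1, a disulphide-forming oxidase that many cells secrete, at 27.4 and 25.9 against 65.4 and 72.1 CPM (1.37, adjusted p = 0.00943, and 0.0594 and 0.0703 without WT.1476 or WT.1477). In bulk RNA, fewer cells of a type and less RNA per cell cannot be told apart, here and below.

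The mucin glycosylation and secretory pathway genes fell in 7 and rose in 2 of 26, with a median of -0.42. None of the falls was called without WT.1476 or WT.1477, 1 was without either K9M library, 2 were without K36M.1485 and 8 were without K36M.1553. Pdia4, a disulphide isomerase of the endoplasmic reticulum, was at 55.6 and 47.3 CPM in WT and 18.4 and 28.6 CPM in K36M (-1.13 ± 0.23, adjusted p = 0.0184, at most 0.0931 without 1 of these). Galnt3, which starts mucin-type sugar chains, rose from 26.2 and 25.6 to 56.9 and 83.4 CPM (1.44 ± 0.21, at most 0.0569). The groups did not overlap for these 2 genes, as for 62.8% of all tested genes.

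Within the other secretory lineages members went both ways. Of 30 enteroendocrine genes, 4 rose and 6 fell, with a median of 0.30. The count of rises was 3 or 4 without any one library, and that of falls 2 without WT.1476 or WT.1477 and 3 to 5 otherwise. Ret, a receptor tyrosine kinase, went from 2.91 and 3.12 CPM in WT to 46.7 and 39.8 CPM in K36M, and Chga, the granule protein chromogranin A, from 46.7 and 43.8 to 163 and 127 CPM. Ddc, the decarboxylase that makes serotonin and dopamine, went from 447 and 548 down to 92.8 and 61.7 CPM (-2.69 ± 0.25, adjusted p = 0.0022). Enterocytes are known to express Ddc too.

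Gcg, the glucagon precursor that gives GLP-1, was at 5.38 and 2.58 CPM in WT and without a count in K36M, at least 42.0-fold lower. Nts, neurotensin, was at 6.89 and 4.95 against 0.149 and 0.182 CPM (-5.09 ± 1.01, adjusted p = 0.0173). In K9M it was at 0.104 and 1.09 CPM, and its call was lost without WT.1476, WT.1477, K36M.1485 or K36M.1553 (at most 0.0675). Gip, the incretin of the upper small intestine, fell from 87.8 and 106 to 44.1 and 29.4 CPM (-1.4 ± 0.27, at most 0.0787 without WT.1476 or WT.1477). The hormone genes named here were all lower in both K36M libraries.

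Tuft cell genes rose in 1 and fell in 2 of 19, where 23.3% of all tested genes were called either way. The rise was of Ptgs1, the prostaglandin synthase COX-1, at 4.95 and 5.09 CPM in WT and 103 and 39.1 CPM in K36M (3.82 ± 0.47, adjusted p = 0.00448). Dclk1, the kinase that marks tuft cells, went the other way, from 20.1 and 21.2 to 9.93 and 3.64 CPM (-1.61 ± 0.45, adjusted p = 0.0456). Its call was kept in 8 of 15 alternatives and lost with the 2 genotypes alone and without either WT or either K9M library, among others (at most 0.143). Both tuft cell falls were lost without WT.1476 or WT.1477, and 7 falls were called without K36M.1485. Of 16 Paneth cell genes, 1 rose and 2 fell, with 0 to 3 either way when 1 library was left out. The rise of Lyz1, a lysozyme, was 1.08 ± 0.18, from 48.0 and 39.9 to 99.5 and 86.4 CPM, and K9M was higher still at 242 and 205 CPM (adjusted p = 0.0740 without WT.1477). Ang4, an antimicrobial ribonuclease, fell from 2.09 and 2.24 to 0.149 and 0.485 CPM (-2.70 ± 0.66, adjusted p = 0.0308, and at most 0.112 over the alternatives, 6 of which lost the call).

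**Figure D3:**
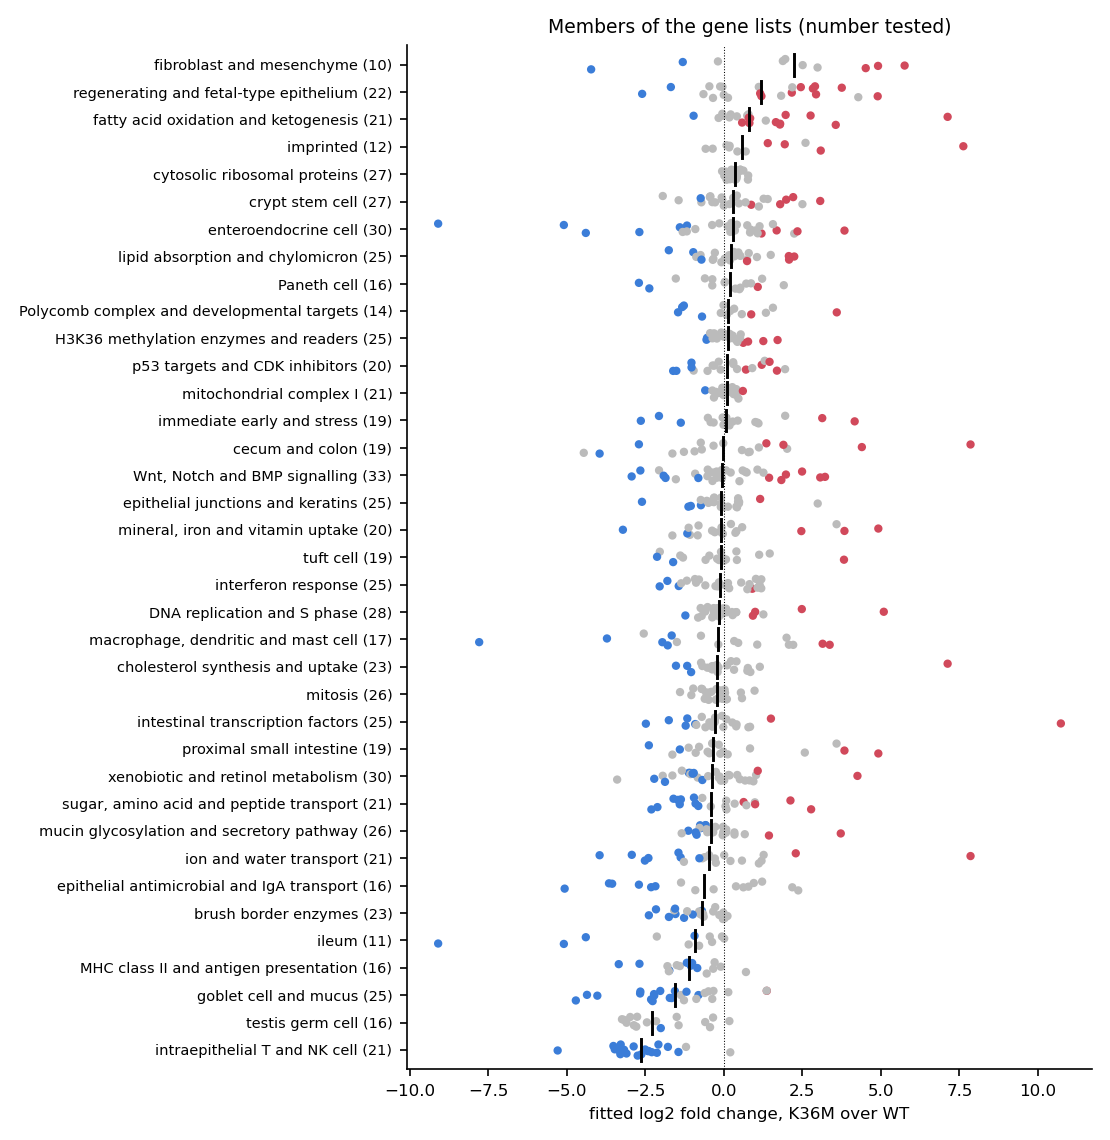
Each point is a tested member of a gene list with at least 10 tested members, at its fitted log2 fold change of K36M over WT. Red members rose, blue members fell, grey members were not called, black bars are list medians, and vertical scatter within a row has no meaning. Intraepithelial T and NK cell genes have the lowest median (-2.62), and fibroblast genes (2.23), regenerating epithelium genes (1.18) and fatty acid oxidation genes (0.79) the highest.

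Lymphocyte genes of the epithelium were lower as a group. Of 21 tested intraepithelial T and natural killer (NK) cell genes, 19 fell and none rose, with a median of -2.62. The count of falls was 10 without WT.1477, 14 without WT.1476 and 15 to 18 without any other library. Cd3g, a chain of the T cell receptor complex, was at 19.9 and 22.7 CPM in WT and 2.99 and 1.4 CPM in K36M (-3.29 ± 0.38). Cd8a, the coreceptor of cytotoxic T cells, was at 31.8 and 42.5 against 7.99 and 7.16 CPM (-2.29 ± 0.27). Lck, a kinase of T cell signalling, was at 9.22 and 12.0 against 1.79 and 1.64 CPM (-2.62 ± 0.32). These 3 genes and the chemokine Ccl5, at 43.4 and 51.3 against 9.26 and 4.98 CPM, kept their call without any one library.

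Il2rb, a subunit of the receptors for interleukins 2 and 15, was at 12.8 and 12.9 CPM in WT and 1.79 and 1.21 CPM in K36M (-3.10 ± 0.28). Ptprc, CD45 of all white blood cells, went from 23.7 and 25.1 to 9.48 and 6.01 CPM (-1.66 ± 0.25). Cd244a, a receptor of NK cells, and Fasl, a death ligand, were the 2 tested members not called, at log2 fold changes of 0.21 and -1.20. The summed level of the list was 471 and 497 CPM in WT, 91.9 and 57.3 CPM in K36M, and 389 and 497 CPM in K9M. K36M was thus below all 4 other libraries.

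Epithelial defence and antigen presentation genes had fewer calls. Of 16 antimicrobial and IgA transport genes, 6 fell and none rose (median -0.62), with 2 to 4 falls when 1 library was left out and the fewest without WT.1477. Pigr, the receptor that carries IgA through the epithelium, was at 7323 and 8187 CPM in WT and 1722 and 1399 CPM in K36M. Reg1, a secreted lectin-like protein, was at 1973 and 3825 against 295 and 166 CPM (-3.65 ± 0.66, adjusted p = 0.0136, and at most 0.0707 without WT.1477, K36M.1485 or K36M.1553). The remaining 10 members were not called, and 7 of the 16 were higher in K36M by their fitted value.

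Of 16 antigen presentation genes, 7 fell and none rose (median -1.11), with 3 to 5 falls when 1 library was left out. Against K9M the median of the list was 0.27, with 3 members called higher and 4 lower, those 4 among the 7 falls. Psmb8, an immunoproteasome subunit, was at 91.3 and 88.7 CPM in WT and 35.2 and 44.4 CPM in K36M (-1.18 ± 0.17, adjusted p = 0.00638). H2-Eb1, of MHC class II, was at 126 and 39.8 CPM in WT and 14.7 and 11.2 CPM in K36M, while K9M was lower still at 6.94 and 5.31 CPM. Its fall (-2.68 ± 0.53, adjusted p = 0.017) was lost without K36M.1485 or K36M.1553. B2m, the shared light chain of MHC class I, fell from 1911 and 2779 to 1135 and 1126 CPM (-1.05 ± 0.23, adjusted p = 0.0229), and lost its call with the 2 genotypes alone and without WT.1477, K36M.1485 or either K9M library (at most 0.109).

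Interferon response genes separated the 2 K36M mice from each other more than the genotypes. Their summed level was 744 CPM in K36M.1485 and 1744 CPM in K36M.1553, on either side of 1428 and 1413 CPM in WT. Oasl2, an antiviral protein, was at 143 and 158 CPM in WT and 37.3 and 237 CPM in K36M, and Isg15, a ubiquitin-like modifier, at 50.7 and 47.1 against 13.0 and 94.1 CPM. Of 25 tested, 1 rose and 3 fell, but 13 fell without K36M.1553 and 9 rose without K36M.1485. Irf9, the DNA-binding part of the interferon-activated complex, rose from 69.9 and 88.4 to 152 and 145 CPM (0.91 ± 0.16, adjusted p = 0.013, and 0.0826 without WT.1476).

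Of 23 brush border genes, known from absorptive enterocytes, 8 fell, none rose and 15 were not called (median -0.70). The falls numbered 1 without WT.1476 or WT.1477, 5 or 6 without a K9M library or K36M.1553, and 11 without K36M.1485. Lct, the enzyme that splits milk sugar, was at 3241 and 3466 CPM in WT and 758 and 526 CPM in K36M (-2.39 ± 0.26). Mme, the peptidase neprilysin, was at 1798 and 1984 against 608 and 239 CPM (-2.16 ± 0.42, adjusted p = 0.0167, and at most 0.0703 without WT.1476 or WT.1477). Anpep, aminopeptidase N, was at 6900 and 5343 against 1616 and 2030 CPM (-1.75 ± 0.33, at most 0.0701 in the same 2 settings). Structural genes of the microvilli were not called, with fitted log2 fold changes of -0.64 for Vil1, -0.02 for Myo1a and 0.12 for Ush1c.

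Of 21 sugar, amino acid and peptide transport and sugar metabolism genes, 9 fell, 4 rose and 8 were not called (median -0.41). The falls numbered 2 to 8 and the rises 2 or 3 when 1 library was left out, both at their lowest without WT.1476. Slc36a1, a proton-coupled amino acid carrier, was at 332 and 300 CPM in WT and 87.1 and 40.9 CPM in K36M (-2.30 ± 0.38, adjusted p = 0.0105), but K9M was as low, at 89.9 and 59.7 CPM. Slc3a1, the heavy subunit of a cystine carrier, was at 217 and 255 against 86.2 and 92.4 CPM (-1.4 ± 0.16).

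The 4 rises were of G6pc, Fbp1, Khk and Tkfc. G6pc, glucose-6-phosphatase, which releases free glucose, went from 91.1 and 107 to 834 and 523 CPM (2.78 ± 0.32, adjusted p = 0.00352). Fbp1, the gluconeogenic fructose bisphosphatase, went from 97.0 and 101 to 412 and 449 CPM (2.12 ± 0.15, adjusted p = 0.0013). Fbp1 was also high in K9M, at 339 and 341 CPM. Khk and Tkfc, of fructose breakdown, rose by 0.63 and 1.0 on the log2 scale. The call of Khk was lost whichever library was left out (0.051 to 0.174), and that of Tkfc without WT.1476, WT.1477 or either K9M library (at most 0.113).

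Ion transport genes fell in 7 and rose in 2 of 21 (median -0.47), with 2 to 6 falls when 1 library was left out, fewest without WT.1477, and no rise without WT.1476 or WT.1477. Slc9a2, a sodium-proton exchanger, was at 208 and 226 CPM in WT and 39.2 and 37.0 CPM in K36M (-2.51 ± 0.15, adjusted p = 0.00101). Car2, a carbonic anhydrase, was at 53.7 and 126 against 10.1 and 13.4 CPM (-2.93 ± 0.45, adjusted p = 0.00847, and 0.0586 without K36M.1485). The epithelial sodium channel subunits Scnn1a and Scnn1g were the 2 rises. Scnn1a went from 14.0 and 14.8 to 95.7 and 45.3 CPM (2.29 ± 0.36, adjusted p = 0.00913, at most 0.0599 without a WT library), and Scnn1g from no count in WT or K9M to 1.12 and 2.25 CPM, at least 20.5-fold higher (adjusted p = 0.0194, and at most 0.264, with the call lost by DESeq2 and without WT.1476, WT.1477 or K36M.1553).

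Of 20 mineral, iron and vitamin genes, 3 rose and 2 fell, with 1 to 4 rises and 0 to 3 falls when 1 library was left out. The share called over all tested genes was 23.3%. Bco1, which cleaves beta-carotene to retinal, went from 1.36 and 1.97 CPM in WT to 21.7 and 25.7 CPM in K36M (3.84 ± 0.32, adjusted p = 0.00168). Lrat, which makes retinyl esters for storage, went from 50.8 and 61.6 to 9.48 and 2.79 CPM (-3.21 ± 0.56, adjusted p = 0.0119, and 0.0546 without WT.1477). Slc11a2, the iron importer DMT1, rose from 106 and 189 to 1121 and 509 CPM (2.47 ± 0.44, adjusted p = 0.0129, and 0.0678 without WT.1476). Trpv6, a calcium channel of absorbing epithelia, was the third rise, from 0 and 0.407 to 4.26 and 7.04 CPM (4.92 ± 1.41, adjusted p = 0.0495). Its K9M values were 1.04 and 8.52 CPM, and its call was kept in 6 of 15 alternatives, K9M.1516 being the only library without which it held (at most 0.167).

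Fatty acid oxidation and ketogenesis genes were the metabolic list with the most rises. Of 21 tested, 11 rose and 1 fell, with a median of 0.79, where 11.7% of all tested genes rose. The rises numbered 5 without WT.1477, 6 without WT.1476, 7 without either K9M library and 10 or 11 without a K36M library. Pdk4, the kinase that shuts glucose carbon out of the mitochondrial acetyl-CoA pool, rose from 144 and 183 to 655 and 627 CPM (1.97 ± 0.22). Acadl, a long-chain acyl-CoA dehydrogenase, rose from 250 and 263 to 693 and 1085 CPM (1.79 ± 0.24). Acot2, a mitochondrial acyl-CoA thioesterase, rose from 11.2 and 11.5 to 52.8 and 101 CPM (2.76 ± 0.32), and Acaa1b, a peroxisomal thiolase, from 90.0 and 102 to 259 and 346 CPM (1.66 ± 0.19). These genes kept their call without any one library. K36M.1553 was the higher K36M mouse for Acadl, Acot2 and Acaa1b, and the 2 mice were alike for Pdk4.

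Cpt1a, which loads fatty acids for entry into mitochondria, rose from 168 and 164 to 389 and 754 CPM (1.79, adjusted p = 0.0159, at most 0.0927 without WT.1476 or WT.1477). Further rises were of Acot1, Acadvl, Hadhb, Slc25a20 and Ech1, with log2 fold changes of 3.56, 0.84, 0.81, 0.79 and 0.58, and each lost its call without WT.1477. All but Acot1 also lost it without WT.1476 or either K9M library (at most 0.23), Acadvl and Slc25a20 without K36M.1553 too, and Ech1 without K36M.1485. Ppargc1a, a coactivator of mitochondrial genes, was the 1 that fell, from 104 and 115 to 55.7 and 56.2 CPM (-0.96, adjusted p = 0.0218, and 0.0736 and 0.109 without WT.1476 or WT.1477). Acot1, Acot2 and Acaa1b have near-identical relatives, so their values are uncertain.

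**Figure D4:**
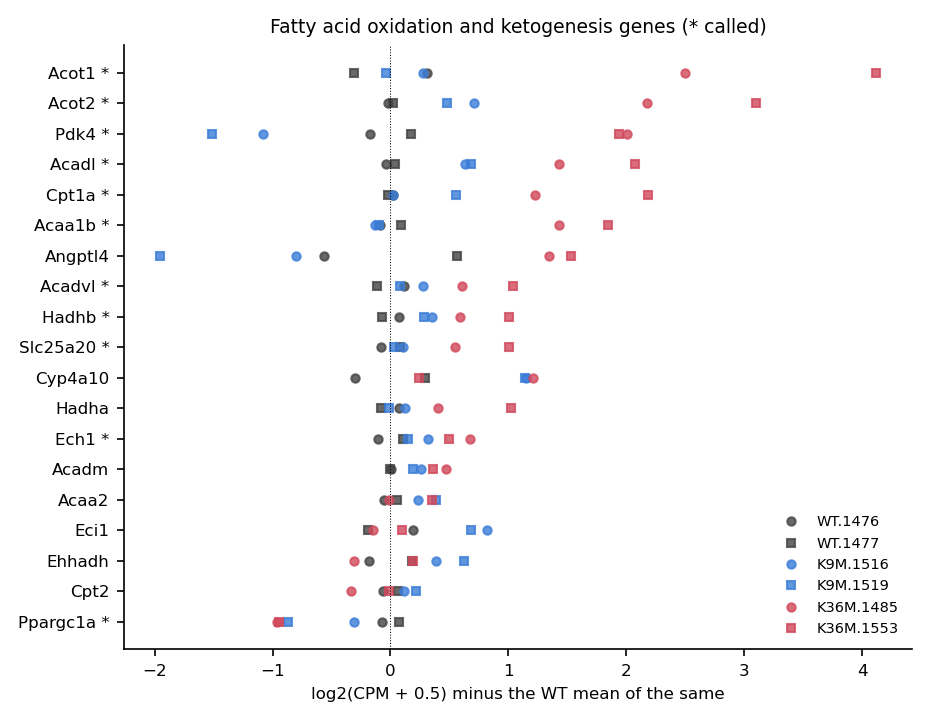
Fatty acid oxidation and ketogenesis genes, 19 of the 21 tested, in each intestine library. The x axis is log2(CPM + 0.5) minus the mean of the same value over the 2 WT libraries, circles and squares are the mice of a group, and colours are the genotypes. Both K36M mice lie to the right of both WT mice for Acot1, Acot2, Pdk4, Acadl, Cpt1a and Acaa1b, and to the left for Ppargc1a.

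Of 25 lipid absorption genes, 4 rose and 3 fell (median 0.22), with 2 to 7 rises and 1 to 3 falls when 1 library was left out, both at their lowest without WT.1476 or WT.1477. Ppara, the nuclear receptor that switches on fatty acid oxidation, was at 31.1 and 31.5 CPM in WT and 153 and 110 CPM in K36M (2.07 ± 0.23, adjusted p = 0.00323). Dgat2, which makes triglyceride, was at 373 and 449 against 1774 and 1695 CPM (2.08 ± 0.26). Plin2, a coat protein of lipid droplets, was at 107 and 95.4 against 316 and 643 CPM (2.24 ± 0.35, adjusted p = 0.00875, and at most 0.0645 without WT.1476 or WT.1477). The chylomicron genes Apob and Mttp were not called, at -0.08 and 0.20.

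Cholesterol synthesis genes fell in 3 and rose in 1 of 23. Sc5d, a late enzyme of the pathway, was at 160 and 185 CPM in WT and 85.4 and 82.3 CPM in K36M (-1.04 ± 0.15), and Dhcr7, the last enzyme, at 46.7 and 49.6 against 18.8 and 24.0 CPM (-1.17 ± 0.17, adjusted p = 0.00778, and 0.0539 without WT.1477). The falls numbered 11 without K36M.1553 and 1 without WT.1477. Of 30 xenobiotic and retinol metabolism genes, 7 fell and 2 rose, with no fall without WT.1477 and 1 without WT.1476. Nr1i2, the xenobiotic receptor PXR, rose from 138 and 169 to 373 and 276 CPM (1.08 ± 0.20, adjusted p = 0.0146, at most 0.0904 without a WT library), and Nr1h4, the bile acid receptor FXR, from 33.9 and 46.7 to 102 and 156 CPM (1.68 ± 0.30, adjusted p = 0.0133, at most 0.0797 without a WT library).

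Genes known from regenerating and fetal-type epithelium rose in 9 and fell in 2 of 22, with a median of 1.18. The rises numbered 2 without WT.1476 or WT.1477 and 6 to 8 without any other library. Anxa5, a calcium-dependent membrane-binding protein, was at 6.45 and 9.43 CPM in WT and 50.3 and 68.0 CPM in K36M (2.90 ± 0.28, adjusted p = 0.00232). Its call was kept without any one library. Ccn1, a secreted target of YAP, was at 2.18 and 1.70 CPM in WT and 12.8 and 8.62 CPM in K36M (2.45 ± 0.40, at most 0.0723 without a WT library). Tnfrsf12a, the receptor of the cytokine TWEAK, was at 5.09 and 4.82 against 19 and 56.8 CPM (2.94 ± 0.52, at most 0.0777 without a WT library). Krt19 and Clu, further members, were not called, at 0.00 and 1.11. The epidermal growth factor receptor ligands Areg, Ereg and Hbegf were not called either, at -0.34, -0.65 and -0.04.

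Of 27 crypt stem cell genes, 5 rose and 1 fell (median 0.30), with 1 rise and no fall without WT.1476 or WT.1477. Ephb2, a guidance receptor of the crypt base, rose from 18.6 and 10.3 to 43.7 and 56.9 CPM (1.79 ± 0.30, adjusted p = 0.0102), and K9M was at 7.82 and 7.89 CPM. Lgr5, the receptor that marks the cycling stem cells, was at 0.437 and 0.814 CPM in WT and 2.99 and 7.4 CPM in K36M (3.07 ± 0.67, adjusted p = 0.0222, and at most 0.117 without WT.1476, WT.1477 or K36M.1553). The stem cell markers Olfm4, Ascl2 and Smoc2 were not called, at -1.44, -0.05 and -0.71. Calls made up 23.3% of all tested genes.

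Of 33 genes of the Wnt, Notch and BMP pathways, 6 rose and 5 fell (median -0.07), with no rise without WT.1476 or WT.1477 and 2 to 5 falls when 1 library was left out. Fzd7, a Wnt receptor, was at 13.0 and 13.6 CPM in WT and 1.05 and 2.37 CPM in K36M (-2.93 ± 0.40, adjusted p = 0.00581). Id1, a target of BMP signalling, was at 61.1 and 79.3 against 18.1 and 19.1 CPM (-1.91 ± 0.19, adjusted p = 0.00245). Dll4, a Notch ligand, fell from 17.1 and 20.6 to 6.65 and 3.82 CPM (-1.85 ± 0.31, adjusted p = 0.0106, and 0.0637 without WT.1477).

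Few cell division genes were called. None of 26 mitosis genes was called by edgeR or limma-voom and 1 was by DESeq2, with 1 under an unadjusted p of 0.05 in edgeR. Mki67, the proliferation antigen, was at 83.7 and 27.1 CPM in WT and 15.5 and 91.2 CPM in K36M, so the mice of each genotype differed more than the genotypes. Without K36M.1553, 4 of these genes fell. Among 28 replication genes 4 rose and 1 fell. Rrm2, the small subunit of the enzyme that makes deoxyribonucleotides, went from 10.9 and 4.48 to 342 and 190 CPM (5.09 ± 0.54, adjusted p = 0.00316). The replication rises numbered 1 without WT.1477 and 2 without WT.1476 or K36M.1485.

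Of 20 p53 target and CDK inhibitor genes, 4 rose and 4 fell, with 1 to 6 rises and 0 to 5 falls when 1 library was left out. Cdkn1a, the cell cycle inhibitor p21, rose from 209 and 290 to 604 and 549 CPM (1.21 ± 0.20, adjusted p = 0.0105, and 0.0615 without WT.1476). Cdkn2b, the inhibitor p15, fell from 88.1 and 83.0 to 19.4 and 36.5 CPM (-1.61 ± 0.30, adjusted p = 0.0143, at most 0.0650 without a WT library). Among 19 immediate early and stress genes 2 rose and 3 fell. For both lists the shares over all tested genes were 11.7% that rose and 11.7% that fell. Hmox1, heme oxygenase 1, rose from 0.873 and 0.746 to 15.3 and 14.1 CPM (4.16 ± 0.33, adjusted p = 0.00152), Dusp1, a phosphatase of MAP kinases, from 8.39 and 7.6 to 52.6 and 87.9 CPM (3.13 ± 0.31), and Fos fell from 254 and 333 to 104 and 124 CPM (-1.37 ± 0.19). K9M had Fos at 135 and 132 CPM. Leaving out 1 library gave 1 to 3 falls and 2 to 5 rises in this list.

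Among 25 intestinal transcription factors, 5 fell and 2 rose (median -0.29), with 3 to 7 falls and 2 or 3 rises when 1 library was left out. Maf, a bZIP factor of enterocytes, was at 542 and 564 CPM in WT and 127 and 71.5 CPM in K36M (-2.48 ± 0.29, adjusted p = 0.00372). Hnf4g, a nuclear receptor of enterocyte differentiation, was at 936 and 1065 against 272 and 323 CPM (-1.75 ± 0.19, adjusted p = 0.00318), while its paralog Hnf4a was not called, at -0.28. Klf5, a factor of proliferating crypt cells, was at 136 and 126 against 53.8 and 59.2 CPM (-1.21 ± 0.15, adjusted p = 0.00407).

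Cdx2, which sets intestinal identity, fell from 136 and 106 to 56.8 and 72.0 CPM (-0.91, adjusted p = 0.0271), and lost its call without 5 of the 6 libraries (at most 0.129). Vdr, the vitamin D receptor, fell from 578 and 933 to 323 and 352 CPM (-1.16 ± 0.26, adjusted p = 0.0237, at most 0.103 over the alternatives and lost with the 2 genotypes alone and without WT.1477, K36M.1485 or either K9M library). Gata4, Gata6 and Cdx1 were not called, at -0.02, -0.46 and 0.41.

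Of 25 enzymes and readers of H3 lysine 36 methylation, 4 rose and 2 fell (median 0.14), with no call without WT.1476 and 1 rise without WT.1477 or either K9M library. Zmynd8, a reader protein, rose from 37.5 and 49.4 to 117 and 90.4 CPM (1.26 ± 0.21, adjusted p = 0.00996, and 0.0648 without WT.1476), and Nsd1, a lysine 36 methyltransferase, from 161 and 149 to 231 and 245 CPM (0.62 ± 0.15, adjusted p = 0.031, at most 0.176 over the alternatives, 6 of which lost the call). Of 14 Polycomb genes and targets, 2 rose and 4 fell. The share called either way over all tested genes, to set beside both lists, was 23.3%. Jarid2, a cofactor of Polycomb complex 2, fell from 47.1 and 53 to 19.7 and 20.2 CPM (-1.33 ± 0.16, adjusted p = 0.0041). Ezh2, its methyltransferase, fell from 26.2 and 19.5 to 6.27 and 10.3 CPM (-1.46 ± 0.29, adjusted p = 0.017, at most 0.0900 without a WT library), and Cbx7, of Polycomb complex 1, rose from 7.32 and 3.46 to 95.7 and 36.5 CPM (3.60 ± 0.62, adjusted p = 0.0116, and 0.0695 without WT.1477). The falls numbered 1 without WT.1477 and 2 without WT.1476.

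Markers of cells outside the epithelium were examined because dissociated tissue may hold other cells. Of 10 tested fibroblast genes, 3 rose and 2 fell (median 2.23), and no call remained without WT.1477. Col6a2, a collagen VI chain, was at 0.194 and 0 CPM in WT and 10.2 and 2.43 CPM in K36M, and Pdgfra, a receptor of mesenchymal cells, at 0.582 and 0.0678 against 16.7 and 4.67 CPM (4.91 ± 0.96, adjusted p = 0.0167, and 0.0740 without WT.1477). The summed level of the list nevertheless was lower in K36M, at 241 and 123 CPM against 323 and 375 CPM in WT, since Fbln1, the most abundant member, fell from 311 and 369 to 169 and 106 CPM (-1.31 ± 0.25, adjusted p = 0.0146, and 0.0747 without WT.1477). K36M.1485 was the higher of the K36M mice for these genes. The part of stromal cells in the results was not tested.

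Mylk, the kinase of smooth muscle myosin, was at 358 and 398 CPM in WT and 135 and 150 CPM in K36M (-1.41 ± 0.18, adjusted p = 0.00453). It was the only call among 9 smooth muscle genes, whose median was 1.67. By fitted value 6 of the 9 were higher in K36M and 3 lower. Mylk made up most of the summed level of the list, which was 374 and 406 CPM in WT and 172 and 162 CPM in K36M. No endothelial gene of 8 was called by edgeR, with 2 called by DESeq2, 1 by limma-voom and 3 under an unadjusted p of 0.05 in edgeR. Csf1r, a macrophage receptor, rose from 1.21 and 0.407 to 10.8 and 6.61 CPM (3.37 ± 0.61, adjusted p = 0.0129, and 0.0635 without WT.1477), and in the 17 macrophage, dendritic and mast cell genes 2 rose and 5 fell, with 0 to 4 rises and 1 to 6 falls when 1 library was left out. S100b, a glial marker, rose from 0.097 and 0.136 to 6.50 and 7.83 CPM (5.89 ± 0.54, adjusted p = 0.00211). Only 4 of the 12 listed enteric neuron and glia genes were tested, and the other 3 were not called. B and plasma cell markers summed to 83.0 CPM in K36M.1485 and to 9.14 to 22.3 CPM in the other 5 libraries. Their part in the results was not tested.

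**Figure D5:**
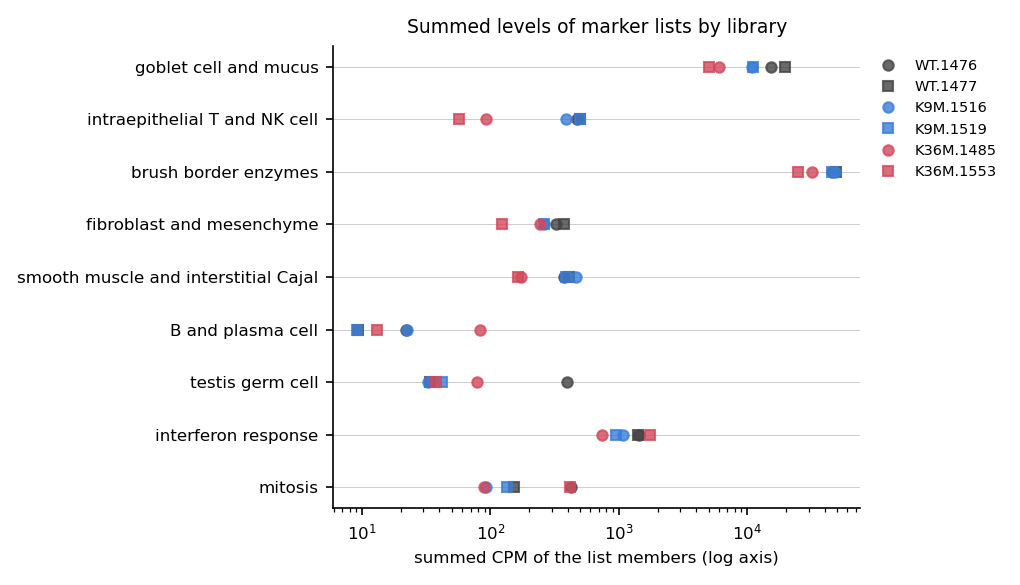
Summed CPM of the members of 9 marker lists in each intestine library, on a log axis, with circles and squares for the mice of a group and colours for the genotypes. K36M lies lowest for goblet, T and NK cell and brush border lists, WT.1476 stands alone in testis germ cell genes, and the mice of WT and K36M differ from each other in mitosis genes.

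Segment markers were examined because the labels do not name the part of intestine. Of 19 tested proximal small intestine genes, 2 rose and 2 fell (median -0.35), and of 11 ileum genes none rose and 4 fell (-0.93). Cecum and colon genes rose in 4 and fell in 2 of 19 (-0.02). By comparison, 11.7% of all tested genes rose and 11.7% fell. The ileum falls included Gcg and Nts, above, and Slc51a, a bile acid exporter, at 209 and 275 CPM in WT and 142 and 112 CPM in K36M (-0.93 ± 0.23, adjusted p = 0.031, at most 0.144 over the alternatives, 6 of which lost the call). The ileum falls numbered 1 without WT.1476, WT.1477 or K36M.1553. The other 2 lists had 1 to 5 rises and 0 to 4 falls when 1 library was left out. Prdx6, a peroxiredoxin listed for colon, rose from 185 and 205 to 564 and 435 CPM (1.35 ± 0.19). The other cecum and colon rises were of Ggh, Scnn1g and Sycn, and the 2 falls were of Car4 and Ang4. Whether the segment sampled differed between the mice was not tested.

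The K9M libraries give a second reference for the same K36M libraries. Since both comparisons share K36M.1485 and K36M.1553, they are not independent and their values are only set side by side. Against K9M, 3570 genes (25.1%) were called, 1736 higher and 1834 lower in K36M, and K9M against WT gave 30 calls. Without K9M.1519 or K9M.1516 the count was 620 or 640. With scaling by library size alone 2052 were higher and 1402 lower, 59.4% higher against 48.6% with TMM, as that scaling moved the median of all genes to 0.16. Scd1 was 8.82 higher than WT and 9.48 higher than K9M on the log2 scale. Reg3g was at -5.07 against WT and -5.20 against K9M. Serpinb9b was at 10.12 and 9.10 in the same order.

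Some values were nearer 0 against K9M. Zg16 was at -2.66 against WT and -1.02 against K9M (adjusted p = 0.0185), since K9M held 953 and 1051 CPM, between the other genotypes. Muc2 was at -4.35 and -3.47. Fos and Slc36a1 were not called against K9M, at -0.23 and -0.23 (adjusted p = 0.399 and 0.68). Of all tested genes, 12.2% were higher and 12.9% lower in K36M than in K9M. Of the 21 T and NK cell genes 17 were lower than in K9M and none higher (median -2.52), and of the 25 goblet cell genes 7 were lower and 2 higher (-0.72). Of the 21 fatty acid oxidation genes 9 were higher and 1 lower (0.66). The 16 antigen presentation genes did not keep their direction as a list, with 3 higher and 4 lower than in K9M and a median of 0.27, against -1.11 from WT.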

How the data were processed

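Polyadenylated RNA was extracted with the RNeasy plus mini kit and made into libraries with SMARTer v3, per the labels' protocols. The authors deposited raw counts of reads for each gene. STAR, HTSeq and the build mm9 are named in the submitters' processing notes, and their versions were not given in the sources used here. A file held 37620 gene IDs and 5 summary entries, which were removed before any library size or test was computed. As shares of all entries these held, over the 6 intestine libraries, 12.0% to 17.3% of reads in no feature, 23.8% to 29.1% without a unique alignment and 2.84% to 4.17% ambiguous. Symbols came from GENCODE M21 by ID, for 32897 IDs. The strand setting of the counting was not given, and reads of overlapping or antisense genes cannot be told apart.

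The 6 intestine libraries were fitted in R 4.3.3 with edgeR 4.0.16 (TMM factors, filterByExpr, robust quasi-likelihood, 3 group means, 3 residual degrees of freedom), after a test on simulated data. The K9M libraries entered to share the estimate of spread. P-values were adjusted by Benjamini-Hochberg over all tested genes at 0.05. With 2 mice per group, the spread is that between these mice. Groups without a count were given as bounds from 3 counts over the group, and groups with 1 to 3 counts as ratios with an exact 95% counting interval. The 46 gene lists were written from general knowledge and matched by symbol, with 19 of 1030 entries unmatched. The members and lists were chosen with earlier results of these data known.

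The genes named were the 10 largest rises and falls among called protein-coding genes whose mean log2 CPM was 2 or more and groups that do not overlap, up to 4 members per list, by smallest adjusted p, where a list had a call, 2 abundant members of a list without one, and H3f3a and H3f3b. A few genes chosen this way are left out of the text. Further members of the lists and the switched genes were named after their values were seen. Alternatives were DESeq2 1.42.0, limma-voom (limma 3.58.1), a fit without robust estimation, size factors by RLE or library size alone, no filter and a stricter filter on low counts, the 2 genotypes alone, a threshold of 0.01, a minimum of 2-fold, testis genes left out, and each library left out in turn. With 1 library removed, the single mouse remaining in that group was taken to vary as the others do.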

Additional observations from a re-analysis of the deposited data

How the results depend on the processing

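Between K36M and WT, DESeq2, limma-voom, other scaling, other filters and leaving out testis genes gave 3025 to 4834 calls, within 1.5 times of 3323. An adjusted p of 0.01 left 927 calls (1023 against K9M) and the 2 genotypes alone gave 1890. Leaving out 1 library gave 881 (without WT.1477) to 3775 (without K36M.1553) calls against WT, and 620 (without K9M.1519) to 3972 (without K36M.1553) against K9M. Removing a library also removes residual degrees of freedom, which left 2 of 3. Of the 152 genes named by the rule and called, 66 kept their call in all 15 settings, 61 lost it without WT.1476 and 77 without WT.1477, 24 and 28 without K9M.1516 or K9M.1519, 19 and 18 without K36M.1485 or K36M.1553, and 29 with the 2 genotypes alone. DESeq2 lost 2 and limma-voom 8. None changed direction. Counts of called list members stayed within 1.5 times in 699 of 828 values under other settings and in 311 of 552 with a library left out. No paired analysis was possible because the mice of the 2 genotypes carry different numbers. Groups of 2 mice do not allow a test of outlying mice. Depth limits genes under 1 CPM, where 221 genes rose and 63 fell of 1746 tested.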

Other observations

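Genes that join epithelial cells fell in 4 and rose in 1 of 25. Cldn15, a claudin that lets sodium pass between cells of the small intestine, was at 787 and 953 CPM in WT and 148 and 138 CPM in K36M (-2.60 ± 0.19, adjusted p = 0.00124), and kept its call in all 15 alternative settings. Cldn4, a claudin that tightens junctions, went the other way, from 125 and 158 to 253 and 377 CPM (1.16 ± 0.25, adjusted p = 0.0213, and at most 0.122 without WT.1476 or WT.1477). Dsc2, a desmosomal cadherin, fell from 263 and 318 to 140 and 140 CPM (-1.05 ± 0.17, adjusted p = 0.00943, and 0.0604 without WT.1477). Without WT.1477 the list held 1 fall and no rise. The 2 claudins lay on opposite sides of WT in both K36M mice.

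Of 12 imprinted genes, which are read from 1 parental copy, 4 rose and none fell (median 0.56), and none was called without WT.1476 or WT.1477. Sgce, a sarcoglycan, had no count in WT and 1.87 and 1.03 CPM in K36M, at least 16.6-fold higher, and Meg3, a noncoding RNA, went from 0.388 and 0.271 to 2.99 and 2.79 CPM (3.08 ± 0.57, adjusted p = 0.0139). Among 5 tested genes of the serpin B9 family and its neighbours, of 15 listed, 3 rose, where 11.7% of all tested genes rose. The list holds Serpinb9b, 1 of the 10 largest rises, and was chosen with earlier results known. Serpinb9b had 3 counts in each WT library and entered the test through its K36M counts. The count of rises is therefore a description only. Housekeeping lists showed little against WT. No cytosolic ribosomal protein gene of 27 was called by edgeR or limma-voom, against 2 by DESeq2 and 2 under an unadjusted p of 0.05 in edgeR. The fitted value was above 0 for 26 of them. Both K36M libraries lay above both WT libraries for 4, against 30.6% of all tested genes. Against K9M, 7 of the 27 were called higher and 0 lower (median 0.87), where 12.2% of all tested genes were called higher. Of 21 complex I genes 1 rose and 1 fell, neither of them when either WT or either K9M library was left out. Processed pseudogenes were called in 6.23% of 289, lincRNA genes in 22.9% of 109 and protein-coding genes in 24.1% of 12882.

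Traces of neighbouring organs were low. Sycn, a pancreatic granule protein that is also found in gut, was at 0.340 and 0.0678 CPM in WT and 4.18 and 5.22 CPM in K36M (4.39 ± 0.66, adjusted p = 0.00784). Only 4 of the 15 listed pancreas genes had enough counts to be tested. Of these 2 were called higher, where 11.7% of all tested genes were, and with so few members the count is a description. Ctrb1, the other call, was lost with the 2 genotypes alone and kept in 8 of 14 alternative settings. The sum of 13 stomach and squamous genes was 1.07 and 1.02 CPM in WT and 3.14 and 7.34 CPM in K36M. Igf2, an imprinted growth factor, was at 2.23 and 2.24 CPM in WT, 13.0 and 4.25 CPM in K36M and 0.311 and 0.400 CPM in K9M. Its rise against WT (adjusted p = 0.0492) was lost in 8 alternative settings, among them those without WT.1476, WT.1477, K36M.1485 or either K9M library (at most 0.190).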
